A study of Mus musculus with 8 samples.

Results

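Bone morphogenetic protein (BMP) signalling was followed through 10 genes in the aortas of ageing Marfan mice: the ligands Bmp2, Bmp4 and Bmp6, the secreted antagonist Grem1, the receptors Bmpr1a and Bmpr2, the inhibitory Smad Smad6, and the target genes Id1, Id2 and Id3. They were found by exact gene symbol among the 25526 symbols counted in each library, and all 10 passed the filter on low counts. The data were bulk RNA sequencing libraries of aortic tissue from male mice with the genotype MFS (Fbn1C1041G/+), which carry a missense change in fibrillin-1 on a single chromosome. There were 4 libraries from mice aged 2 years, set by the study as the stage of arrested aneurysm growth. Another 4 came from mice aged 12 weeks, the stage of growing aneurysms. The labels do not say whether a library held 1 mouse or several. The p-values therefore set the difference between the ages against the spread between libraries of the same age. Every mouse carried the Fbn1 allele and no wild-type mice are used here, so an effect of age and an effect of the allele that changes with age cannot be told apart. The labels do not say which segment of the aorta was taken.

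BMPs are secreted dimers of the TGF-beta superfamily. They bind type II receptors such as Bmpr2, which phosphorylate type I receptors such as Bmpr1a, and these phosphorylate Smad1, Smad5 and Smad9. With Smad4 the activated Smads enter the nucleus and induce the Id genes, whose helix-loop-helix proteins lack a DNA-binding region and sequester other transcription factors, and Smad6, which feeds back on the receptors. In vessels the pathway is known for roles in endothelial quiescence, smooth muscle state and calcification, and loss of human BMPR2 function causes heritable pulmonary arterial hypertension.

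Promoter windows are shown for Smad6, Id2 and Id3, the known Smad targets found in the RefSeq table, and for Bmp4, the ligand called below. The table (build GRCm38.p6) gave 300 bases per gene, from 250 before to 50 after the annotated start, for 8 of the 10 genes and not for Bmp2 and Id1. The windows are chr9:64022010-64022309 for Smad6 on the minus strand, chr12:25096043-25096342 for Id2 on the minus strand, chr4:136143572-136143871 for Id3 on the plus strand and chr14:46390620-46390919 for Bmp4 on the minus strand, each written 5′ to 3′ along the gene. Capitals mark GTCTAGAC, a palindromic Smad-binding element, or GGCGCC, the GC-rich core of BMP response elements. Each of these motifs is its own reverse complement, so a match covers both strands, and they do not overlap each other.
Smad6: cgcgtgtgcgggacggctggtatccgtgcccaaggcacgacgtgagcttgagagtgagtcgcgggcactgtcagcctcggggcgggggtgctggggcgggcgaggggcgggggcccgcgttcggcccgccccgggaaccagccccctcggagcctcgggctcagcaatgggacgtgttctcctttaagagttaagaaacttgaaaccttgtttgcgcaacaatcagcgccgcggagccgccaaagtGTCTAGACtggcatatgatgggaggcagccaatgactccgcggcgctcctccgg
Id2: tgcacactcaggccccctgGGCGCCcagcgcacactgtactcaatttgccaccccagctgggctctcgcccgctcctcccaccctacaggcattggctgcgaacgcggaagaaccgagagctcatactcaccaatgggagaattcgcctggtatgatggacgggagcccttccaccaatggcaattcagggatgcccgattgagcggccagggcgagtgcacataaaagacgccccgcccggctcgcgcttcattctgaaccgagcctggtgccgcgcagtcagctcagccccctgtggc
Id3: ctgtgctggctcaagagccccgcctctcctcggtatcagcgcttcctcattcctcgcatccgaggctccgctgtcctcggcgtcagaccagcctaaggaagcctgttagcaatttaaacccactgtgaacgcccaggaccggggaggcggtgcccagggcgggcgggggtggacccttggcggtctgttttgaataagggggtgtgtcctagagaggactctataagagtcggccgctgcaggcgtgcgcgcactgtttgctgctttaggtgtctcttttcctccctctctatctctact
Bmp4: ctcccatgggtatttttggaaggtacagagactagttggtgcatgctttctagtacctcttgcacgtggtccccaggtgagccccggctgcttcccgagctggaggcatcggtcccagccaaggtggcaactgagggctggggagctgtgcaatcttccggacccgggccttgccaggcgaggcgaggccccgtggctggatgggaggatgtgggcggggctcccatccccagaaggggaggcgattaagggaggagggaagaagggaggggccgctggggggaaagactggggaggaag
The Smad6 window held GTCTAGAC at position -4 from the start, a motif present in 0.213% of the 32851 windows of this length in the table. The Id2 window held GGCGCC at position -231, and so did those of Grem1 at -78, Bmpr1a at -198 and Bmpr2 at -105, against 11.9% of all windows. Neither motif lay in the windows of Id3, Bmp4 and Bmp6. A match describes letters in a window and is not a binding site.

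Of the 10 BMP genes, Bmp4 and Id1 rose at 2 years and 0 fell (edgeR quasi-likelihood test, called at an adjusted p below 0.05). At an unadjusted p below 0.05, 3 were higher and 0 lower with edgeR, and 3 were higher and 1 lower with DESeq2 and with limma voom. At an adjusted p below 0.05, DESeq2 and limma voom also called 0 lower. The changes were small, 1.36-fold for Bmp4 and 1.49-fold for Id1. Across the 13978 genes tested, 52% were called, 25.8% higher and 26.2% lower. The median log2 fold change of the 10 BMP genes was 0.11, against -0.01 for all genes tested. With the length and GC offset described below these medians were -0.05 and -0.06, with 1 member called higher and 1 lower. Levels below are in CPM, counts scaled to a library of 1000000.

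**Figure D1:**
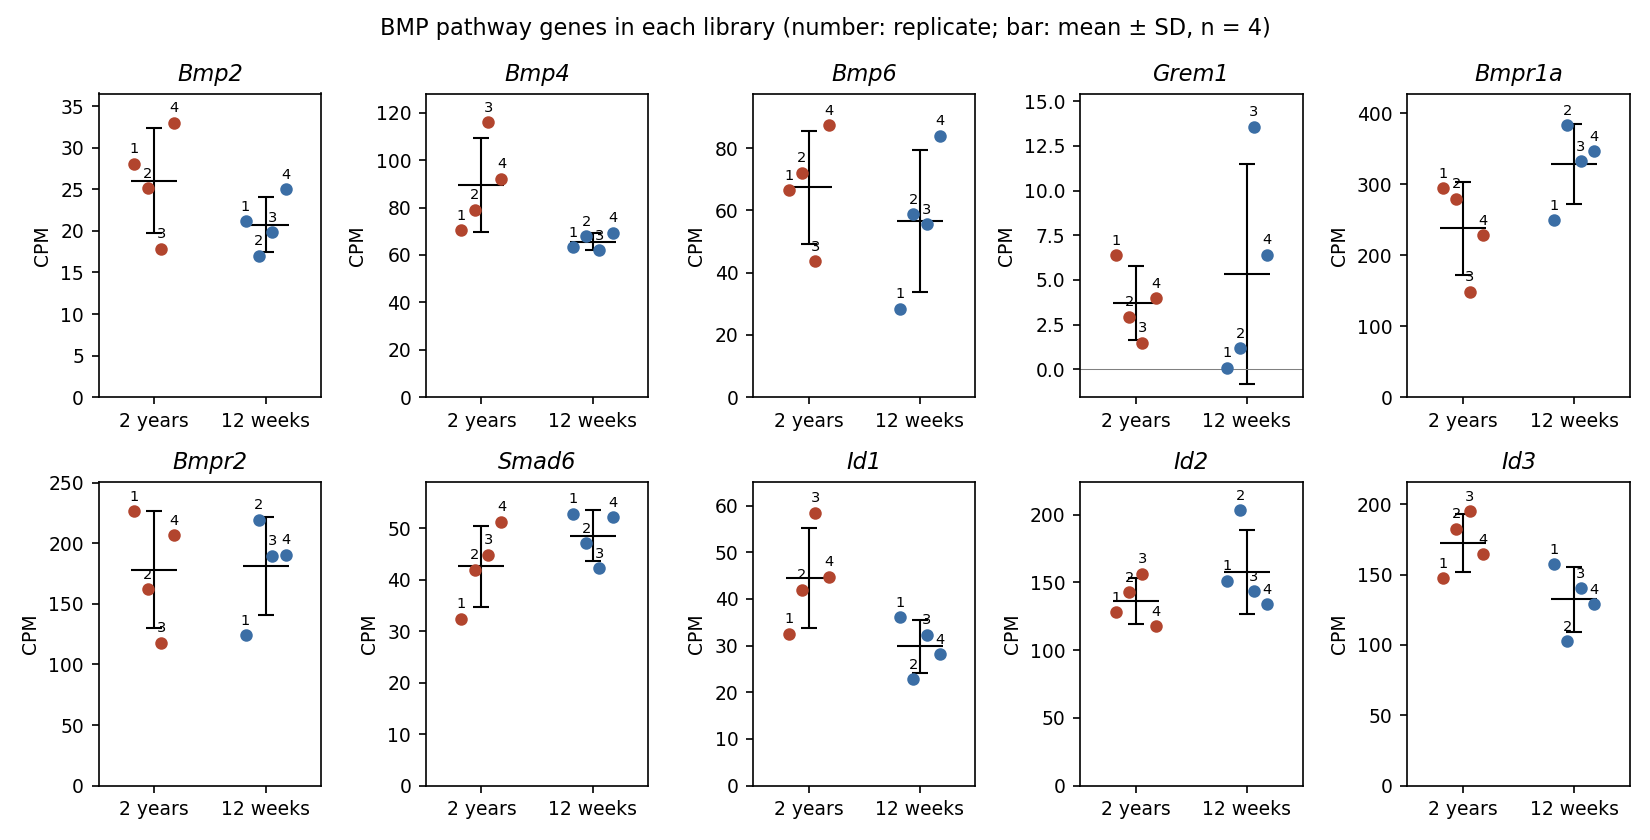
Expression of the 10 BMP genes in each library, in CPM, for 4 libraries at 2 years (red, left) and 4 at 12 weeks (blue, right). Numbers are replicates and bars give the mean ± SD. The ranges of the 2 ages overlap for every gene except Bmp4, whose lowest 2-year library, at 70.4 CPM, lies just above the highest 12-week library, at 69.3 CPM.

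Among the ligands, Bmp4, a classical ligand of Bmpr1a, was the most abundant per length. Bmp4 was at 70.4, 79.1, 115.9 and 92.2 CPM in 2 years replicates 1 to 4, against 63.2, 67.9, 61.9 and 69.3 CPM in 12 weeks replicates 1 to 4. The groups did not overlap, as was the case for 49.6% of all genes tested, and the 2-year values spread more widely than the 12-week values. The mean was 89.4 ± 19.8 CPM at 2 years and 65.6 ± 3.59 CPM at 12 weeks (SD, n = 4 each), or 0.45 on the log2 scale (SE 0.15; edgeR adjusted p = 0.0307). The call was lost when any 1 of 6 of the 8 libraries was left out, with the lowest value, 0.30, without 2 years replicate 3. With an offset for transcript length and GC share, described below, it was also lost, at 0.13 on the log2 scale (edgeR adjusted p = 0.436).

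Bmp2, a ligand linked to vascular calcification, was at 28.1, 25.1, 17.9 and 33.0 CPM in 2 years replicates 1 to 4. In 12 weeks replicates 1 to 4 it was at 21.2, 17.02, 19.9 and 24.98 CPM. The groups overlapped through 2 years replicate 3, and the log2 fold change of 0.33 (SE 0.19) did not pass the test (edgeR adjusted p = 0.159). Without that library it was 0.47 and passed (adjusted p = 0.0231). Bmp6, made by endothelial cells and known in the liver as the signal that sets hepcidin, was at 66.4, 72.0, 43.7 and 87.4 CPM at 2 years and at 28.4, 58.7, 55.6 and 84.0 CPM at 12 weeks. Its spread within each age exceeded the difference between them (log2 fold change 0.25, SE 0.30, adjusted p = 0.508). The lowest Bmp6 values were those of 12 weeks replicate 1 and 2 years replicate 3.

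Compared per length, as CPM per kilobase of the longest coding transcript, the ligands kept the order Bmp4, Bmp6, Bmp2 in every library. Bmp4 had 43.3 ± 9.60, Bmp6 18.7 ± 5.04 and Bmp2 7.32 ± 1.78 CPM per kilobase at 2 years (SD, n = 4). At 12 weeks the levels were 31.8 ± 1.74, 15.8 ± 6.33 and 5.84 ± 0.930 CPM per kilobase. Bmp4 made up 56.4% to 76.6% of the 3 ligands in 2-year libraries and 52.5% to 68.8% in 12-week libraries, so its share did not separate the ages. Its highest share at each age was in 2 years replicate 3 and 12 weeks replicate 1, the libraries lowest in Bmp6.

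Grem1, gremlin 1, binds BMP2 and BMP4 outside the cell and keeps them from their receptors. It was counted 224, 69, 23 and 115 times in 2 years replicates 1 to 4 and 2, 31, 367 and 158 times in 12 weeks replicates 1 to 4. In CPM this was 1.495 to 6.39 at 2 years and 0.0873 to 13.6 at 12 weeks, so the 12-week libraries enclosed the whole 2-year range. The log2 fold change was -0.50 with an SE of 1.04 (edgeR adjusted p = 0.709), and its sign turned to 0.54 without 12 weeks replicate 3. That library also held the highest summed level of 6 heart muscle markers, 965 CPM against 72.9 to 145.9 CPM in the other 7, and the highest fat marker level at 12 weeks, 554 CPM. The part of these tissues in the Grem1 value was not tested.

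With TMM scaling and all libraries neither receptor passed the test; with the length and GC offset described below Bmpr2 did, at 0.93 on the log2 scale (edgeR adjusted p = 0.00129). Bmpr1a, a type I receptor, was at 294, 279.8, 148.5 and 229 CPM in 2 years replicates 1 to 4 and at 249.6, 383, 333 and 347 CPM in 12 weeks replicates 1 to 4. The 2-year values lay mostly below, and the groups overlapped through 12 weeks replicate 1 (log2 fold change -0.46, SE 0.21, edgeR adjusted p = 0.0879). Without 12 weeks replicate 1 the value was -0.58 and passed (adjusted p = 0.0489). Bmpr2, the type II receptor, was at 226, 162, 118 and 207 CPM at 2 years and at 124, 219, 189.8 and 190.4 CPM at 12 weeks. Its log2 fold change with TMM scaling was -0.02 (SE 0.22, adjusted p = 0.942).

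Bmpr1a was the more abundant receptor per length in every library. It stood at 2.40 to 3.74 times Bmpr2 in 2-year libraries and at 3.78 to 4.35 times in 12-week libraries, ranges that did not overlap. This ratio is taken within a library and does not depend on how libraries were scaled to each other. It was among 7 ratios and shares of members looked at and was not tested. The ratios of Id2 to Id3 and of Id1 to Id2, given below, did not overlap either. Of all single genes tested, 49.6% did not overlap between the ages, and the share for ratios between genes was not computed. The log2 fold changes of Bmpr1a and Bmpr2 lay further apart with the offset (-0.15 and 0.93) than with TMM scaling alone (-0.46 and -0.02).

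Smad6, the inhibitory Smad that dampens BMP receptors and is known from endothelium, was at 32.4, 42.0, 44.9 and 51.3 CPM at 2 years. At 12 weeks it was at 52.9, 47.1, 42.2 and 52.2 CPM. The groups overlapped widely, and the difference of -0.19 on the log2 scale (SE 0.15) did not pass the test (edgeR adjusted p = 0.311).

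Of the 3 Id genes, Id1 was called with TMM scaling and Id2 and Id3 were not. Id1 was at 32.5, 42.0, 58.5 and 44.8 CPM in 2 years replicates 1 to 4, against 36.1, 22.8, 32.4 and 28.1 CPM in 12 weeks replicates 1 to 4. The 2-year values were the higher ones except in replicate 1, which lay below 12 weeks replicate 1. Id1 rose to 44.4 ± 10.7 CPM at 2 years, against 29.8 ± 5.70 CPM at 12 weeks (SD, n = 4 each; log2 fold change 0.57, SE 0.19, edgeR adjusted p = 0.0258). The call was lost without 12 weeks replicate 2 (0.46), 12 weeks replicate 4 (0.54) or 2 years replicate 3 (0.41). With the length and GC offset described below the call was lost and the sign turned, to -0.05 (adjusted p = 0.795).

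Id3 was at 147, 182, 195 and 165 CPM at 2 years and at 157, 102.5, 140.4 and 129 CPM at 12 weeks. The groups overlapped through replicate 1 of each age. Id3 missed the threshold (log2 fold change 0.38, SE 0.15, edgeR adjusted p = 0.056) but passed it with DESeq2 (0.39, adjusted p = 0.0353) and limma voom (0.39, adjusted p = 0.0489). Id2 was at 128, 143, 157 and 118 CPM at 2 years and at 151, 203, 143.6 and 134 CPM at 12 weeks (log2 fold change -0.21, SE 0.16, adjusted p = 0.272). Id2 was called lower, at -0.62, with the offset. Its highest CPM, in 12 weeks replicate 2, fell in the library where Id1 and Id3 were lowest.

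Per length Id3 was the most abundant Id gene, at 135 ± 16.3 CPM per kilobase at 2 years and 103.5 ± 18.04 at 12 weeks, followed by Id2 at 69.2 ± 8.68 and 80.2 ± 15.8 CPM per kilobase and Id1 at 38.3 ± 9.24 and 25.7 ± 4.91 (SD, n = 4 each). Id2 exceeded Id3 in a single library, 12 weeks replicate 2. The ratio of Id2 to Id3 was 0.463 to 0.563 in 2-year libraries and 0.623 to 1.29 in 12-week libraries, with no overlap. That of Id1 to Id2 was 0.432 to 0.646 at 2 years and 0.191 to 0.405 at 12 weeks, also with no overlap. Of all single genes tested, 49.6% did not overlap, and the share for ratios was not computed. The ratio of Id1 to Id3 was 0.243 to 0.33 at 2 years and 0.24 to 0.254 at 12 weeks. The Id1 to Id3 ratio varied little within the 12-week libraries, where the Id2 to Id3 ratio was highest in replicate 2. These ratios were not tested, and the length trend described below was not removed from them. Id2, at 1969 nt, belongs to a group of longer transcripts than Id1 and Id3. The median log2 fold change was 0.17 in the length group of Id2 and 0.47 in that of Id1 and Id3.

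Over all 10 genes the order per length at 2 years was Id3, Id2, Bmp4, Bmpr1a, Id1, Bmp6, Smad6, Bmpr2, Bmp2 and Grem1. The ranges of Bmp4, Bmpr1a (39.9 ± 11.04 CPM per kilobase) and Id1 overlapped there. So did those of Bmp6, Smad6 (14.4 ± 2.64) and Bmpr2 (13.8 ± 3.74). Within each 2-year library, however, Bmp4 lay above Id1 and Bmp6 above Bmpr2. At 12 weeks Bmpr1a, at 55.1 ± 9.46 CPM per kilobase, stood above Bmp4 and Id1 in each library, and Grem1 was the lowest at both ages, at 0.893 ± 0.497 and 1.28 ± 1.48.

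The relation of level to transcript length differed between the ages. Log2 CPM was centred on each gene's mean over all libraries before its slope on log2 transcript length was taken. This slope was -0.313 to -0.107 in 2-year libraries and 0.125 to 0.261 in 12-week libraries. Its sign is relative to that mean and does not give the direction within a library. Among genes ranked into 5 equal groups by length, the median log2 fold change was 0.47 in the group with the shortest transcripts and -0.50 in that with the longest. Id1, with a transcript of 1160 nt, and Id3, with 1278 nt, belong to the shortest group, and Bmpr1a and Bmpr2, with 5956 and 12899 nt, to the longest. The Bmpr2 value of -0.02 was above the -0.50 of its length group, and the Id1 value of 0.57 close to the 0.47 of its own.

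**Figure D2:**
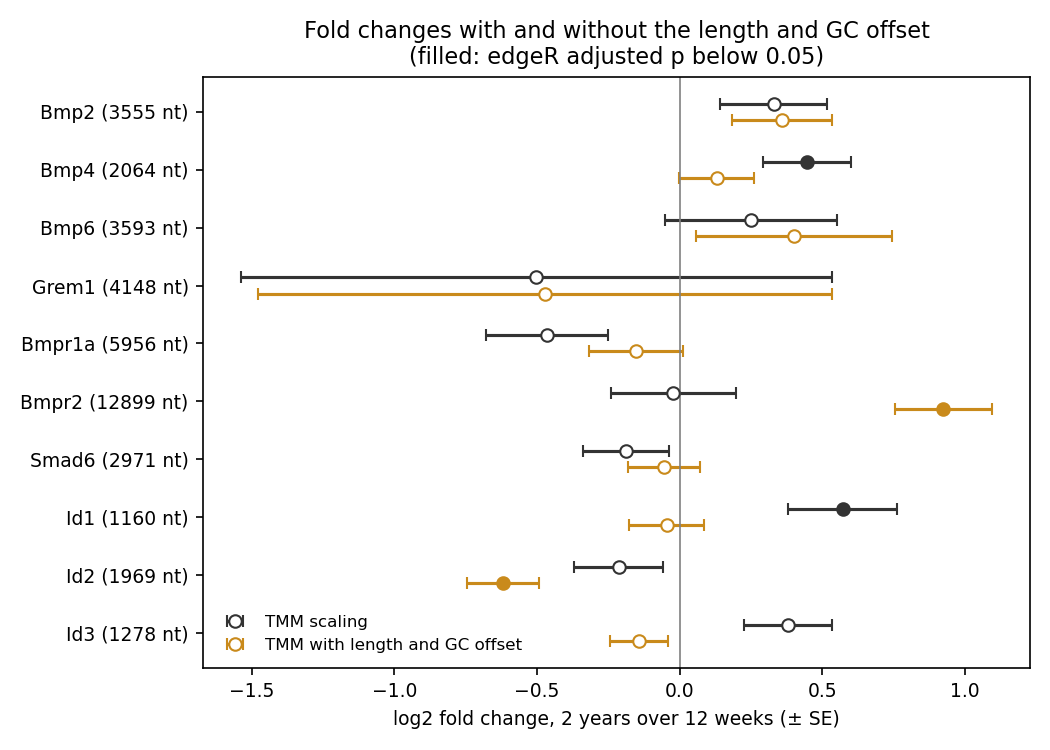
Log2 fold change of each BMP gene (2 years over 12 weeks, ± SE) with TMM scaling (black) and with an added offset for transcript length and GC share (orange). Filled points have an edgeR adjusted p below 0.05. The calls of Bmp4 and Id1 were lost with the offset, and Bmpr2, at 0.93, and Id2, at -0.62, were called in their place.

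With an offset that removed each library's trend on length and GC share, different members were called. Bmp4 and Id1 were not, and Id3 was at -0.14 (edgeR adjusted p = 0.266). Bmpr2 rose by 0.93 on the log2 scale (SE 0.17) and Id2 fell by 0.62 (SE 0.13, adjusted p = 0.00246). The Bmpr2 transcript used, at 12899 nt, was longer than the 6746 nt median of the longest length group. How well the offset holds at that length was not tested. With the offset 50.7% of all genes were called, 22.8% higher and 28% lower. The signs of Bmp2, Bmp4, Bmp6, Grem1, Bmpr1a, Smad6 and Id2 were the same in both fits, and those of Bmpr2, Id1 and Id3 were not. Bmp2, Bmp6, Grem1, Bmpr1a, Smad6 and Id3 were not called in either.

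Summed levels of cell type markers differed between libraries. Of all genes tested, 25.8% were called higher and 26.2% lower, the shares to set beside the marker counts that follow. The summed level of 10 endothelial markers was 453 to 625 CPM at 2 years and 443 to 908 CPM at 12 weeks, and 2 of the 10 fell. The lowest sums at each age were in 2 years replicate 3 and 12 weeks replicate 1, which were also the lowest at their age in Bmp6, Bmpr1a and Bmpr2. Other genes known from endothelium went the other way. Acvrl1, described below, was highest at its age in these libraries, at 116 and 66.7 CPM. At 12 weeks Smad6 (52.9 CPM) and Eng (145.5 CPM) were also highest in replicate 1. The slopes on transcript length in these libraries were -0.293 and 0.125, the latter the lowest at 12 weeks. Of 8 smooth muscle markers 5 fell (16511 to 25010 CPM at 2 years, 28313 to 33941 CPM at 12 weeks), all 8 macrophage markers rose (2284 to 3410.4 CPM at 2 years, 608 to 839 CPM at 12 weeks), and of 8 fibroblast markers 3 fell (2290 to 4369 CPM at 2 years, 3738 to 4061 CPM at 12 weeks). All 6 T and NK cell markers, all 6 B and plasma cell markers and all 5 red blood cell markers rose, with sums of 38.6 to 66.1, 236 to 1220.1 and 1776 to 7929.7 CPM at 2 years and 3.61 to 10.04, 1.58 to 2.44 and 442 to 724 CPM at 12 weeks. Of the 6 fat markers none was called (243 to 770.5 CPM at 2 years, 103.02 to 554 CPM at 12 weeks). Of 5 nerve and Schwann cell markers 2 rose and 1 fell (39.9 to 61.8 CPM at 2 years, 20.7 to 37.9 CPM at 12 weeks). Of 6 heart muscle markers 5 were tested and 2 fell (74.3 to 145.9 CPM at 2 years, 72.9 to 965 CPM at 12 weeks). No marker was at 0 in all libraries. In 2 years replicate 3, fibroblast, macrophage and fat marker sums and the mitochondrial share, 10.3% of counts, were the highest of all 8 libraries, and so were Bmp4, Id1 and Id3. The total of that library, 16251986 counts, and its smooth muscle sum, 16511 CPM, were the lowest of all 8. In bulk tissue fewer cells of a type and less RNA per cell cannot be told apart, and the part of tissue make-up in these results was not tested. Without 12 weeks replicate 3 and 2 years replicate 3, 0 of the 10 BMP genes were called by edgeR, 2 of them at an unadjusted p below 0.05, while 46.4% of all genes were called; DESeq2 and limma voom, run with all libraries, called 3. Without 12 weeks replicate 1 and 2 years replicate 3, a choice made after seeing the data, 4 were called, with Bmp2, Id1 and Id3 higher and Bmpr1a lower. In that fit 53.6% of all genes were called.

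**Figure D3:**
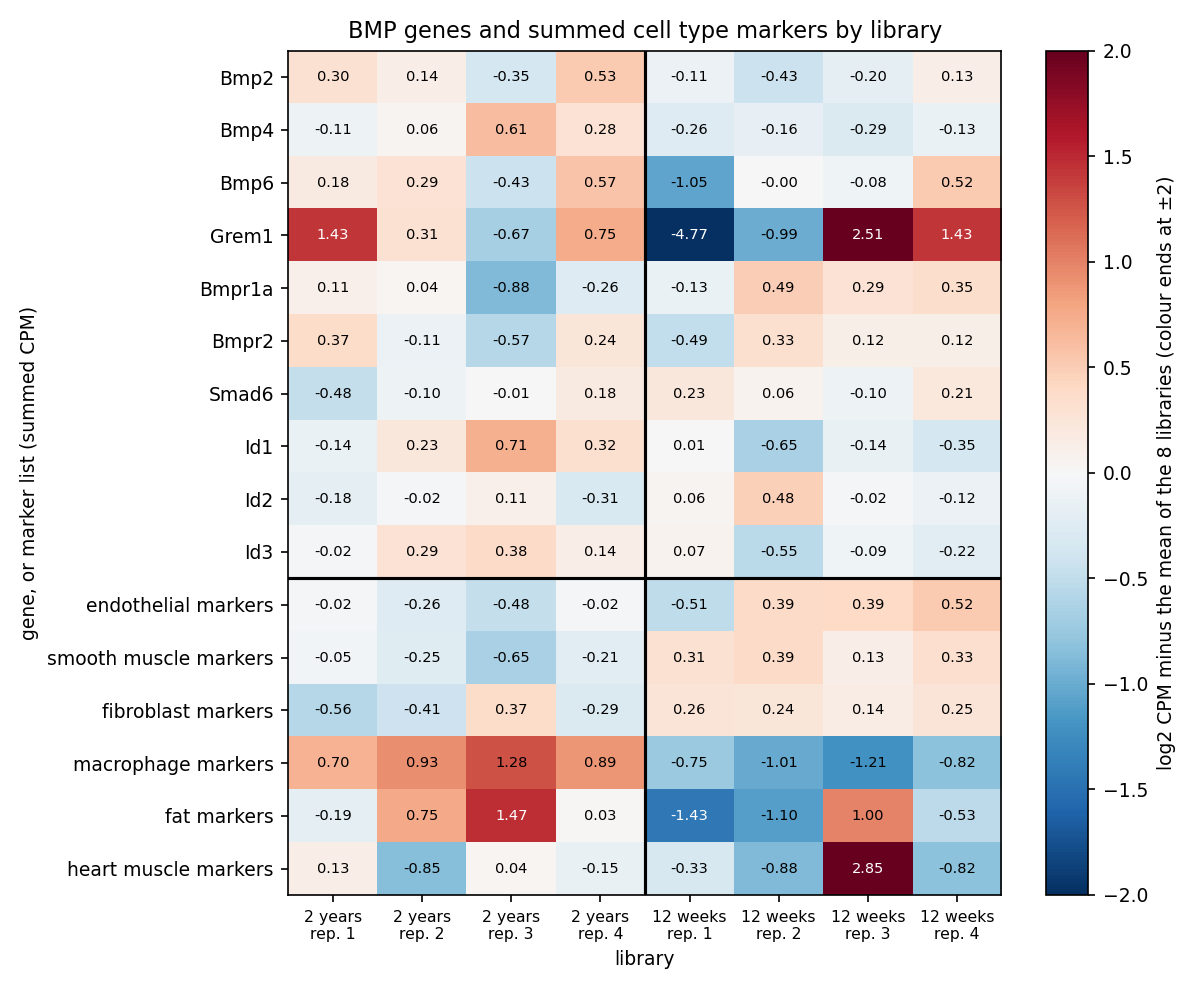
Levels of the 10 BMP genes and of 6 summed marker lists in each library, as log2 CPM minus the mean of the 8 libraries. The columns of 2 years replicate 3 and 12 weeks replicate 1 are low in endothelial markers and in Bmp6 and Bmpr2, and Grem1 spans the widest range, from -4.77 in 12 weeks replicate 1 to 2.51 in 12 weeks replicate 3.

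Larger fold changes were found elsewhere in the pathway. Of 57 further pathway genes in 5 lists 51 were tested. Of these 20 were called, 8 higher and 12 lower, against 52% of all genes called. The median of the 51 was -0.17 on the log2 scale, against -0.01 for all genes. With the length and GC offset these medians were -0.17 and -0.06. With the offset the list medians given below were 0.19 for ligands, -0.18 for receptors, -0.14 for Smads, -0.18 for modulators and -0.47 for targets. Among 15 antagonists and modulators tested, 5 rose and 3 fell (median 0.01), against 52% of all genes called. Chrdl1, a chordin-like protein that binds BMPs, was at 201, 171, 149.5 and 206 CPM at 2 years and at 50.9, 63.0, 61.8 and 45.5 CPM at 12 weeks. The groups lay far apart, and Chrdl1 rose 3.29-fold (log2 fold change 1.72, SE 0.16, edgeR adjusted p = 8.96e-06).

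Fst, follistatin, which sequesters activins and some BMPs, was at 67.9, 47.3, 136.7 and 133 CPM at 2 years and at 35.9, 26.6, 27.9 and 27.9 CPM at 12 weeks. It rose 3.25-fold without overlap (edgeR adjusted p = 0.00139), with 2-year values that differed by more than 2-fold among themselves. Bmper, an extracellular regulator that binds BMPs and is known from endothelial cells, was at 14.1, 17.3, 20.9 and 6.15 CPM at 2 years and at 1.83, 2.54, 4.18 and 1.66 CPM at 12 weeks. It rose 5.66-fold (log2 fold change 2.50, SE 0.40, adjusted p = 0.000547), the largest rise among the pathway genes called. Nbl1, a DAN family antagonist, rose 1.61-fold (adjusted p = 0.00457). Chrdl1, Fst, Bmper and Nbl1 were called in each of the 19 alternatives tried, with log2 fold changes of 1.78, 1.53, 2.55 and 0.54 with the length and GC offset.

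**Figure D4:**
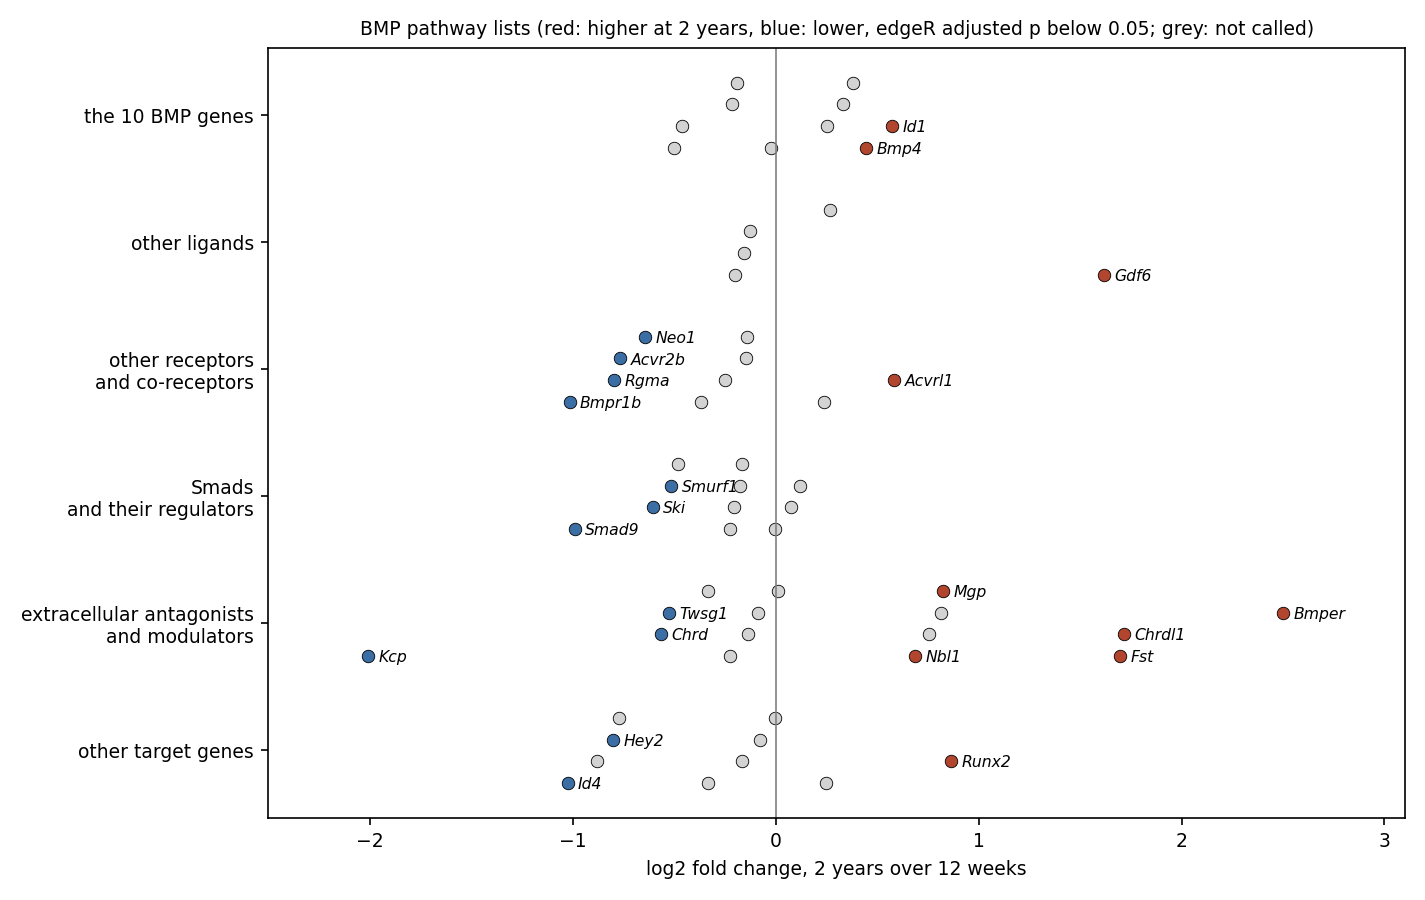
Log2 fold changes (2 years over 12 weeks) of the tested genes of the BMP pathway, in rows by list. Red genes were called higher and blue genes lower at an edgeR adjusted p below 0.05, and grey genes were not called. The rises of Bmper, Chrdl1, Fst and Gdf6 exceed those of Bmp4 and Id1.

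Mgp, Kcp, Chrd and Twsg1 complete the called modulators; they stand outside the rule for named genes, having been picked with their values known. Mgp, matrix Gla protein, an inhibitor of calcification that binds BMPs, was at 4891, 5424, 6022 and 8202 CPM at 2 years and at 5057, 3659.9, 2611 and 2517 CPM at 12 weeks. It rose 1.77-fold (edgeR adjusted p = 0.0188), but with a transcript of 617 nt it went to a log2 fold change of -0.19 with the length and GC offset. The Mgp call was also lost without 12 weeks replicate 3 (0.71), 12 weeks replicate 4 (0.69) or 2 years replicate 4 (0.65). Chordin (Chrd), twisted gastrulation (Twsg1) and Kcp fell, with log2 fold changes of -0.57, -0.53 and -2.01; Kcp was low at both ages, at 0.300 ± 0.163 CPM at 2 years and 1.17 ± 0.448 CPM at 12 weeks (SD, n = 4 each).

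Of 5 further ligands tested, Gdf6 was the one called (list median -0.13), against 52% of all genes. Gdf6, a BMP family ligand of joint and skeletal development, was at 28.8, 19.7, 23.1 and 51.0 CPM at 2 years and at 4.72, 10.2, 9.80 and 15.3 CPM at 12 weeks, a 3.06-fold rise (edgeR adjusted p = 0.00579) without overlap. Bmp10, a ligand made in the heart atria, did not pass the filter on low counts. Its 3099 counts in 12 weeks replicate 3 stood against 0 to 2 in the other 7, and it is named for that value.

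Of 10 further receptors and co-receptors, 1 rose and 4 fell (median -0.31), against 52% of all genes called. Acvrl1 (ALK1), the endothelial type I receptor for BMP9 and BMP10, was at 86.6, 91.5, 116 and 80.3 CPM at 2 years and at 66.7, 56.0, 63.9 and 62.9 CPM at 12 weeks, a 1.5-fold rise (edgeR adjusted p = 0.00426) that was 0.73 on the log2 scale with the length and GC offset. Bmpr1b, a type I receptor close to Bmpr1a, was at 18.4, 12.5, 8.78 and 13.2 CPM at 2 years and at 24.7, 31.6, 24.7 and 26.6 CPM at 12 weeks. It fell by 1.02 on the log2 scale (adjusted p = 0.0015). The co-receptor Rgma fell by 0.80 and its partner Neo1 (neogenin) by 0.65, of which Neo1 was not called with the offset (-0.17). Acvr2b, a type II receptor named outside the rule as the remaining call, fell by 0.77, at means of 1.93 CPM at 2 years and 3.27 CPM at 12 weeks, and was not called without 12 weeks replicate 3 or 4, without 2 years replicate 1, or without 12 weeks replicate 3 and 2 years replicate 3 together.

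Of 11 Smads and regulators 3 fell (median -0.21), against 26.2% of all genes called lower. Smad9, a BMP-activated Smad, was at 19.3, 13.9, 15.3 and 24.7 CPM at 2 years and at 27.7, 44.4, 34.7 and 39.2 CPM at 12 weeks, and fell by 0.99 on the log2 scale (SE 0.20, edgeR adjusted p = 0.00175). The repressor Ski fell by 0.61 and the ubiquitin ligase Smurf1 by 0.51, and neither was called with the length and GC offset (-0.23 and -0.14). Of 10 further target genes 1 rose and 2 fell (median -0.25), against 25.8% of all genes called higher and 26.2% called lower. Id4, the remaining Id gene, was at 37.9, 47.7, 52.7 and 31.9 CPM at 2 years and at 66.3, 102.1, 94.4 and 83.4 CPM at 12 weeks, and fell by 1.03 (SE 0.18, adjusted p = 0.000862). The Notch and BMP target Hey2 fell by 0.80, and Runx2, a bone transcription factor, rose by 0.86 (7.95 ± 1.51 CPM at 2 years, 4.38 ± 0.640 CPM at 12 weeks; SD, n = 4 each; adjusted p = 0.00309). All 3 were called in each of the 19 alternatives.

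The patterns nearest to Id1 across the 8 libraries, by root mean square distance of centred log2 CPM, were those of Tradd (0.0665), Dnlz (0.104) and Homer3 (0.111). Those nearest to Bmpr1a, the member with the smallest p among the lower ones, were Sp4 (0.0502), Jak2 (0.0555) and Mid2 (0.0606). These are likenesses of level among 13978 genes.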

How the data were processed

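Raw counts per gene symbol are the values the authors deposited, per the labels, with 1 table per library and a total of 16251986 to 33880690 counts at 2 years and 23622803 to 27417541 at 12 weeks. The submitters' processing notes name GRCm39. Which aligner, counter, annotation and strand setting were used is not given in the sources used here; reads of overlapping or antisense genes may not have been told apart. Total RNA came from an RNeasy preparation and went to Illumina NovaSeq sequencing, per the labels' protocols.

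The 8 libraries were grouped by the age in their labels. Genes passing edgeR's filterByExpr were scaled by TMM and tested with the quasi-likelihood F test (glmQLFit, robust), with age as the only term and Benjamini-Hochberg adjustment across the 13978 genes that passed; the call threshold was an adjusted p of 0.05. Fold changes put 2 years over 12 weeks; each standard error is the absolute log2 fold change divided by the root of F. CPM uses TMM-scaled library sizes. The adjusted p-values were computed from the deposited counts. The tools were edgeR 4.0.16, DESeq2 1.42.0 and limma 3.58.1 under R 4.3.3. Alternatives were other scaling factors, no filter, DESeq2, limma voom, the replicate block, the offset and leaving out libraries. The pipeline was tested on simulated data. The simulation held no length or GC trend and changed a small set of genes by larger folds than those of Bmp4 and Id1. It therefore does not show how either fit performs with the length trend of these data.

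Length and GC share came from the longest protein-coding transcript in GENCODE M21 (GRCm38), matched by symbol for 13787 tested genes (98.6%); genes without a match got no correction. The offset removes a per-library trend fitted with natural splines of 4 degrees of freedom each. No gene coordinates from that build are set beside the counts.

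The members and lists were chosen with earlier results of these data known. Named genes are the 10 members, up to 4 called genes of each list with the smallest p, and the 3 nearest patterns to 2 members. Libraries sharing a replicate number did not deviate together, so the number is not taken to pair mice. Between libraries of the same age the chi-square per degree of freedom was 22.3 to 149.5, so none was treated as a copy.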

Additional observations from a re-analysis of the deposited data

Results flagged for a closer look

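In 70 groups of 4 libraries, over the members, the named list genes and the summed marker levels, 5 values lay far from the other 3 of their group; chance flags about 1 group in 20. Fst was high in 12 weeks replicate 1, at 35.9 CPM. Nbl1 was low in 12 weeks replicate 2, at 83.3 CPM. The summed endothelial markers were low in 12 weeks replicate 1, at 443 CPM. The summed heart muscle markers were high in 12 weeks replicate 3, at 965 CPM, the library that also held Bmp10. The summed red blood cell markers were high in 2 years replicate 2, at 7929.7 CPM. None of the 10 BMP genes was among these values.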

How the results depend on the processing

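The number of BMP genes called, 2 of 10 with all libraries, was 1 with the replicate block, 0 without 12 weeks replicate 3 and 2 years replicate 3, 4 without 12 weeks replicate 1 and 2 years replicate 3 (chosen after seeing the data), and 0 to 3 when a single library was left out (edgeR). It was 0 without 12 weeks replicate 2 or replicate 4, and in each case of 0, 2 members had an unadjusted p below 0.05; it was 3 with DESeq2 and with limma voom on all libraries. The members called were Bmp4 and Id1 with RLE size factors and without the low-count filter, joined by Id3 with upper-quartile factors, library totals alone, DESeq2 and limma voom. Over the 19 alternatives, calls over all genes numbered 6237 to 7689, or 42.2% to 55% of the genes tested. Calls in the pathway lists numbered 17 to 23. Directions turned for Grem1 with limma voom (0.89), the replicate block (0.31), the length and GC offset with the block (0.36), without 12 weeks replicate 3 and 2 years replicate 3 (0.81) and within the range -0.91 to 0.54 when a single library was left out. Bmpr2 turned with upper-quartile factors (0.057), library totals alone (0.021), the offset (0.93), the offset with the block (0.90), without 12 weeks replicate 3 and 2 years replicate 3 (0.16) and within -0.17 to 0.13 when a single library was left out. With the offset, and with the offset and the block, Id1 was at -0.0452 and -0.0453, Id3 at -0.14 and -0.14, and Mgp at -0.19 and -0.22; the offset removes the length trend by construction. The cause of the other changes was not tested. Of 190 member values under alternatives, 146 kept direction and side of the threshold, 16 changed sign, and of those that kept their sign 15 lost and 13 gained a call; of 380 for the called list genes, 361 kept both. The correlation of deviations between libraries that share a replicate number was -0.31, -0.12, 0.05 and 0.03, and the number was not taken as a pair. These correlations cannot exclude a shared batch or processing step. With the block Bmp4 (0.42, edgeR adjusted p = 0.0651) and Acvr2b (-0.76, adjusted p = 0.0559) were not called. Upper-quartile factors moved the median of all genes to 0.08. Grem1 had the lowest counts among the members (2 in 12 weeks replicate 1).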
